A study of Drosophila melanogaster with 32 samples.

Results

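Rbp4, fest, bru1 and Syp encode RNA-binding proteins of the Drosophila melanogaster germ line or partners of such proteins. They were matched by FlyBase symbol to the gene identifiers of the RNA-seq count files, which gave 4 of the 17559 genes in those files, and to the peaks at their gene ends in 6 ATAC-seq peak lists. All 4 genes passed the filter on low counts. The series holds 32 samples of testes, of which 8 are RNA-seq libraries, 20 are ATAC-seq samples and 4 are CAGE libraries. CAGE counts were deposited under cluster names that carry no gene or position, so no CAGE value of these genes was analysed here.

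RNA-seq had 4 groups of 2 libraries. The aly group had the genotype aly -/- and was raised for 10 days at 25 C with no shock, and is labelled as enriched for mature spermatocytes. The bam group had the genotype bam -/-, was raised for 12 days at 22 C, also with no shock, and is labelled as enriched for spermatogonia. The 48h and 72h groups were bam -/- with heat shock promoter driven Bam, so they carry the same loss of bam as the bam group plus a transgene that a heat shock switches on in any cell. They spent 9 days at 22 C, then 30 min at 37 C, then 48 h and 72 h at 25 C, and are labelled as young and mature spermatocytes. Each RNA-seq replicate pooled 100 pairs of testes from flies under 2 days old. ATAC-seq added topi -/- testes, raised like the aly mutants, and a heat shock control, which was bam -/- without the transgene, shocked in the same way and taken at 48 h. Genotype, temperature, heat shock and growth time differed together between several of these groups, and their parts in a difference cannot be told apart.

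In the fly testis, spermatogonia divide a set number of times and then become spermatocytes, which grow for days before they enter meiosis. Bam is the switch that ends spermatogonial proliferation, and Aly and Topi are parts of tMAC, a testis form of a chromatin complex that turns on many spermatocyte genes. During the long growth phase the messenger RNA of the mitotic cyclin gene CycB is held back from translation until the cells mature. Rbp4 binds CycB mRNA, Fest acts with Rbp4, and both are needed for that repression in immature spermatocytes. Syp is the fly counterpart of mammalian SYNCRIP, an hnRNP-type RNA-binding protein known for timing neural stem cell fates. bru1, also called arrest, encodes Bruno, a CELF-family protein that represses oskar translation in the ovary and directs splicing in flight muscle.

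Each RNA-seq library held 20064489 to 28984275 counts, and 13495 genes were tested. The libraries of a group differed little: a chi-square test of replicate 1 against 2 had p below 0.05 for 7.31% to 7.69% of genes, and the edgeR spread was 2.11%. Nothing says that replicates came from separate cultures, so p-values measure only this narrow spread, which may be technical. The mutated genes were still transcribed in their own mutants: aly had 72.0 and 69.7 CPM (counts scaled to library size by edgeR) in aly testes, and bam had 94.9 and 98.5 CPM in bam testes. Summed CPM of 9 spermatocyte marker genes was 2850 to 2860 in aly, 80.0 to 81.5 in bam (where comr and sa were at 0 counts), 960 to 966 at 48h and 757 to 771 at 72h. The sum was thus lowest in bam, labelled as spermatogonia, and higher in the 3 groups labelled as spermatocytes, but it did not order the young and mature stages. topi alone gave 1146 CPM in aly, and sunz, a marker in the same list, had 0.0240 CPM (1 read) in aly, 0.116 CPM in bam, 1.76 CPM at 48h and 30.4 CPM at 72h.

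Rbp4 (FBgn0010258) lies on chromosome 3R from 13654556 to 13656394 in build dm6, a span of 1839 bp with 1 annotated transcript. Its normalised count was 878.5 and 885.8 CPM in the aly libraries, 2.64 and 3.61 CPM in bam, 399.9 and 399.3 CPM at 48h, and 201.1 and 211.9 CPM at 72h. No libraries of different groups overlapped, and the order ran aly, 48h, 72h, bam, with every neighbouring pair called apart. Rbp4 was 127-fold higher at 48h than in bam (log2 change 6.99 ± 0.0507 SE, adjusted p = 2.14e-40, edgeR's quasi-likelihood F test with Benjamini-Hochberg adjustment over all genes tested). It was 65.6-fold higher at 72h than in bam (6.03 ± 0.0556, adjusted p = 3.08e-38) and 280-fold higher in aly than in bam (8.13 ± 0.0479, adjusted p = 1.04e-42). From the young to the mature stage it fell 1.93-fold (72h against 48h, -0.95 ± 0.0265, adjusted p = 7.19e-25). In aly it was 4.27-fold higher than at 72h (2.09 ± 0.0264, adjusted p = 1.64e-34) and 2.21-fold higher than at 48h (1.14 ± 0.0244, adjusted p = 6.56e-28). The 2 bam libraries held 56 and 84 reads of Rbp4, which is low but above 0.

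fest (FBgn0034435) lies on chromosome 2R from 19341809 to 19345754, inside the far longer gene Rgk1. It had 785.5 and 782.8 CPM in aly, 2.40 and 1.85 CPM in bam, 695.0 and 685.7 CPM at 48h, and 512.9 and 507.0 CPM at 72h. The bam libraries stood far below the others, with 51 and 43 reads, and the other groups lay between 507.0 and 785.5 CPM. fest was 326-fold higher at 48h than in bam (8.35 ± 0.045, adjusted p = 1.67e-43), which placed its log2 change above that of 97.1% of the genes tested. It was 241-fold higher at 72h than in bam (7.91 ± 0.0464, adjusted p = 3.61e-43) and 370-fold higher in aly than in bam (8.53 ± 0.0448, adjusted p = 6.29e-44). Between 48h and 72h it fell 1.35-fold (72h against 48h, -0.44 ± 0.0215, adjusted p = 3.29e-18), a call that was lost when the wider spread of the CAGE libraries was used (adjusted p = 0.134). In aly it was 1.54-fold higher than at 72h (0.62 ± 0.0217, adjusted p = 2.08e-22). Against 48h, aly was 1.14-fold higher (0.18 ± 0.0211, adjusted p = 2.66e-09), but this direction turned to -0.04 without a filter on low counts, and to -0.004, -0.019 and -0.008 without 48h replicate 1, 48h replicate 2 and aly replicate 1, so the order of aly and 48h is not settled. Rgk1, the gene that spans fest, had 7.45 ± 1.33 CPM in aly, 10.6 ± 0.045 CPM in bam, 3.43 ± 0.654 CPM at 48h and 2.92 ± 0.0868 CPM at 72h (SD, n = 2), with bam the highest of the 4 groups, unlike fest.

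**Figure D1:**
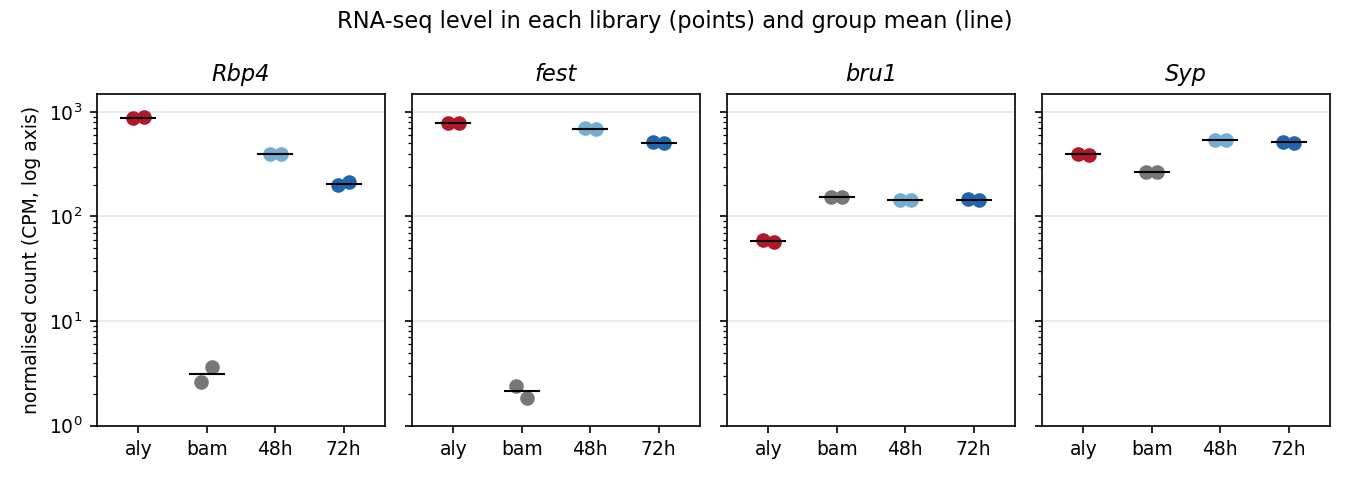
Normalised RNA-seq count (CPM, log axis) of Rbp4, fest, bru1 and Syp in each of the 2 libraries (points) of aly, bam, 48h and 72h, with the group mean as a line. Rbp4 and fest sit at 1.85 to 3.61 CPM in bam and at 201.1 CPM or more elsewhere, bru1 is lowest in aly at 57.0 and 59.2 CPM, and Syp is lowest in bam at 266.0 and 266.1 CPM.

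bru1 (FBgn0000114) lies on chromosome 2L from 12175004 to 12313438, a span of 138435 bp with 11 annotated transcripts. It had 59.2 and 57.0 CPM in aly, 152.5 and 153.6 CPM in bam, 143.3 and 144.0 CPM at 48h, and 146.0 and 144.5 CPM at 72h. The aly libraries stood far below all the others, which lay between 143.3 and 153.6 CPM. bru1 was 2.64-fold lower in aly than in bam (-1.40 ± 0.0305, adjusted p = 6.45e-28), 2.47-fold lower in aly than at 48h (-1.31 ± 0.0298, adjusted p = 3.69e-27) and 2.5-fold lower in aly than at 72h (-1.32 ± 0.031, adjusted p = 3.82e-27). Unlike Rbp4 and fest, bru1 transcripts were thus already near their 48h and 72h levels in bam. The 48h and 72h levels were within 1.07-fold of bam: the log2 change was -0.09 ± 0.0254 at 48h (adjusted p = 0.00145) and -0.08 ± 0.0266 at 72h (adjusted p = 0.00919). Both small changes turned positive with DESeq2 (0.018 at 48h and 0.123 at 72h), and that at 48h also with library size alone (0.096), without a filter (0.15), without bam replicate 1 (0.122), without 48h replicate 1 (0.138) and without 48h replicate 2 (0.125). The call at 72h was lost without a filter (-0.047), without bam replicate 1 (-0.06) and without 72h replicate 2 (-0.071), so bam, 48h and 72h cannot be put in order for bru1. Between 72h and 48h the change was 0.02 with a 95% interval of -0.04 to 0.07 (adjusted p = 0.583), and it became negative with library size alone (-0.313), without a filter (-0.197), without 48h replicate 1 (-0.185) and without 48h replicate 2 (-0.172).

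Syp (FBgn0038826) lies on chromosome 3R from 20756729 to 20810726, with 20 annotated transcripts. It had 399.5 and 391.0 CPM in aly, 266.0 and 266.1 CPM in bam, 542.4 and 541.5 CPM at 48h, and 515.8 and 505.1 CPM at 72h. The bam libraries were the lowest, the aly libraries lay between, and the 48h and 72h libraries were the highest. Syp was 2.04-fold higher at 48h than in bam (1.03 ± 0.0217, adjusted p = 2.71e-28) and 1.92-fold higher at 72h than in bam (0.94 ± 0.022, adjusted p = 2.84e-27). In aly it was 1.49-fold higher than in bam (0.57 ± 0.0222, adjusted p = 4.39e-21). It was 1.37-fold lower in aly than at 48h (-0.46 ± 0.0211, adjusted p = 7.06e-19) and 1.29-fold lower in aly than at 72h (-0.37 ± 0.0215, adjusted p = 1.83e-16). Both calls were lost with the spread of the CAGE libraries (adjusted p = 0.112 and 0.181). The change between 72h and 48h, -0.09 ± 0.0209 (adjusted p = 0.00039), turned to 0.002 with DESeq2, so these neighbours in the order are not settled either. A total testis library cannot tell fewer cells of a type from less RNA per cell, which holds for each level above.

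Counted together, 3 of the 4 genes (Rbp4, fest and Syp) rose at 48h against bam and at 72h against bam. bru1 was called lower in both, but its direction is not settled in either, as given above. Of all genes tested, 44.1% were called higher and 41.8% lower at 48h against bam, and 46.1% and 43.6% at 72h against bam. At 72h against 48h none of the 4 was higher and Rbp4, fest and Syp were lower (Syp not with every method), beside 45.9% and 34.3%. In aly against bam 3 were higher and 1 lower, beside 41.7% and 40.5%. In aly against 48h and in aly against 72h, Rbp4 and fest were higher and bru1 and Syp lower, beside 39.8% higher and 42.8% lower against 48h (where the direction of fest is not settled), and 42.2% and 45.9% against 72h. With so many genes called, these counts do not set the 4 genes apart. By 2-fold or more, 3 rose (30.2% of all genes) and 0 fell (22.7%) at 48h against bam, and 2 rose (36.7%) and 0 fell (27.9%) at 72h against bam, where Syp also passed 2-fold with DESeq2 (1.139). None of the 4 changed that much at 72h against 48h, beside 28.8% of genes higher and 7.51% lower (1013 genes, or 1671 without 48h replicate 1 and 1635 without 48h replicate 2). Rbp4 lay close to this limit and passed it with library size alone (-1.281), without a filter (-1.164), with only the compared groups (-1.145), without 48h replicate 1 (-1.148) and without 48h replicate 2 (-1.145). In aly by 2-fold or more, 2 were higher (29.2%) and 1 lower (25.3%) than in bam, 1 was higher (15.7%) and 1 lower (24.5%) than at 48h, and 1 was higher (22.1%) and 1 lower (33.6%) than at 72h. The 1 higher than at 48h was Rbp4, which came below 2-fold without a filter (0.922), without 48h replicate 1 (0.946), without 48h replicate 2 (0.948) and without aly replicate 1 (0.959). The comparisons share libraries (bam, 48h, 72h and aly each enter 3 of the 6), so they are not separate evidence.

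Testes also hold cells outside the germ line, and markers of such cells and of other tissues differed between the groups. Summed CPM of 12 muscle markers was 1130 to 1140 in aly, 2010 to 2030 in bam, 991 to 1000 at 48h and 1060 to 1070 at 72h. For 8 neuron markers it was 73.8 to 76.2 in aly, 193 to 197 in bam, 90.7 to 94.3 at 48h and 54.6 to 56.4 at 72h. For 9 somatic cyst and hub markers it was 153 in aly, 363 to 366 in bam, 205 to 207 at 48h and 160 to 169 at 72h. For 6 accessory gland genes it was 91.8 to 93.0 in aly, 88.2 to 92.2 in bam, 571 to 575 at 48h and 2190 to 2220 at 72h. No gene of these 4 lists was at 0 in a whole group. The muscle, neuron and somatic sums were thus highest in bam, where Syp was lowest. In aly, where bru1 was lowest, the somatic sum was the lowest of the 4 groups, the neuron sums lay between those of 48h and 72h, and the muscle sums were above both. Single markers did not all follow their sums. sls averaged 331.8 CPM in aly and 103.7 CPM in bam, Mef2 60.3 CPM in aly and 50.2 CPM in bam, brp 12.3 CPM in aly and 0.952 CPM in bam, and eya 78.0 CPM at 72h and 50.5 CPM in bam. Syx1A alone gave 139.2 CPM of the neuron sum in bam, and at 72h against bam 3 of the 7 neuron markers tested were higher and 3 lower. The part of these cells in the bru1 and Syp levels was not tested.

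The genes that Rbp4, Fest and Syp are tied to by function were read from a list of 13 genes on CycB control and meiotic entry. At 48h against bam 7 were higher, 4 were lower and 2 were not called, beside 44.1% and 41.8% of all genes, with a median log2 change of 0.15, beside 0.06 over all genes. CycB itself, the mitotic cyclin whose translation Rbp4 and Fest hold back, had 4.26 and 4.53 CPM in aly, 95.05 and 95.1 CPM in bam, 80.9 and 81.3 CPM at 48h, and 296.4 and 302.4 CPM at 72h. It was 3.69-fold higher at 72h than at 48h (1.88 ± 0.0254, adjusted p = 5.20e-33), the stage at which Rbp4 and fest fell. In aly, where Rbp4 and fest had their highest group means, CycB was 68.0-fold lower than at 72h (-6.09 ± 0.0459, adjusted p = 2.45e-40). These are levels of mRNA and not of translation, and a link between CycB and the levels of Rbp4 and fest was not tested. The small fall of CycB at 48h against bam (-0.23 ± 0.0293, adjusted p = 2.01e-08) turned to 0.013 without a filter on low counts and to 0.001 without 48h replicate 1.

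bol, a translational activator of twe, had 57.6 and 59.5 CPM in aly, 43.7 and 45.9 CPM in bam, 404.0 and 404.1 CPM at 48h, and 608.7 and 621.3 CPM at 72h. It was 9.02-fold higher at 48h than in bam (3.17 ± 0.029, adjusted p = 6.76e-38) and 10.5-fold lower in aly than at 72h (-3.39 ± 0.0278, adjusted p = 2.05e-39). twe, the meiotic Cdc25 phosphatase, averaged 54.6 ± 0.746 CPM in aly, 76.2 ± 0.486 CPM in bam, 174.7 ± 4.77 CPM at 48h and 270.0 ± 2.23 CPM at 72h (SD, n = 2), and was 4.95-fold lower in aly than at 72h (adjusted p = 3.29e-34). CycB, bol and twe rose at 72h against 48h and were lower in aly than at 72h, which is the opposite direction to Rbp4 and fest in both comparisons. CG1690, an RNA-binding protein gene, moved as Rbp4 and fest did in both comparisons: it had 55.96 and 54.95 CPM in aly, 0.141 and 0.043 CPM in bam, 60.3 and 61.3 CPM at 48h, and 24.9 and 23.9 CPM at 72h. Its bam libraries held 4 reads in all, and the ratio of 48h over bam was 677, with a 95% counting interval of 264 to 2487. CG1690 was 2.49-fold lower at 72h than at 48h (adjusted p = 6.39e-21) and 2.27-fold higher in aly than at 72h (adjusted p = 2.86e-19). eIF4G2, a translation factor needed for male meiosis, averaged 367.8 ± 0.159 CPM in aly, 681.7 ± 1.22 CPM in bam, 803.3 ± 3.64 CPM at 48h and 422.1 ± 6.95 CPM at 72h (SD, n = 2). It was 1.90-fold lower at 72h than at 48h (adjusted p = 1.38e-27). Its 1.15-fold lower level in aly than at 72h turned to 0.029 on the log2 scale with library size alone. orb2, a CPEB-family translational regulator, was 12.3-fold higher at 48h than in bam (adjusted p = 1.22e-37), with 263.8 ± 1.84 CPM at 48h and 21.5 ± 0.546 CPM in bam (SD, n = 2).

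**Figure D2:**
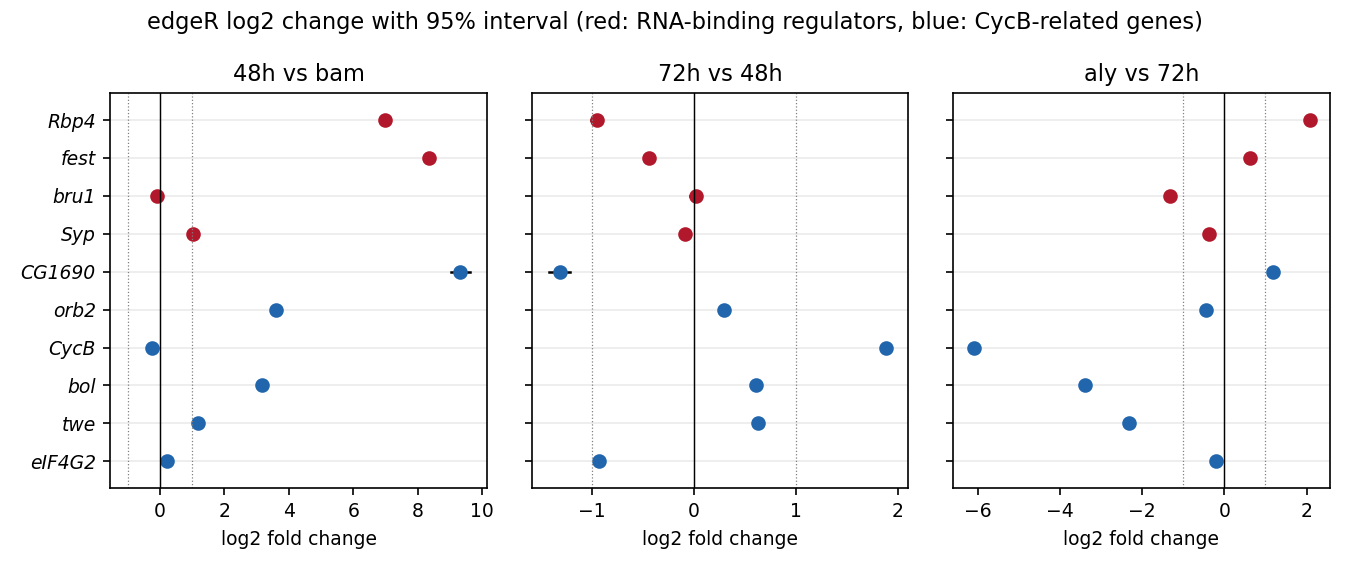
edgeR log2 change with its 95% interval for the 4 genes (red) and for 6 genes of the CycB list (blue), at 48h against bam, 72h against 48h and aly against 72h, on 3 linear axes of different range (dotted lines at -1 and 1). Rbp4, fest and CG1690 lie left of 0 at 72h against 48h and right of 0 in aly against 72h, while CycB, bol and twe lie on the other side in both.

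Across this list, 6 genes were higher and 6 lower at 72h against 48h, beside 45.9% and 34.3% of all genes (median 0.01, beside 0.16 over all genes). In aly against 72h 3 were higher and 9 lower, beside 42.2% and 45.9% (median -0.39, beside -0.07 over all genes). By 2-fold or more, 2 were higher and 3 lower in aly against 72h, beside 22.1% and 33.6%. The 2 were CG1690 and bam, and the 3 were CycB, bol and twe.

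The Bruno family has 3 genes, and they did not move alike. bru2 averaged 26.4 ± 1.55 CPM in aly, 33.9 ± 0.787 CPM in bam, 15.4 ± 0.101 CPM at 48h and 11.8 ± 0.495 CPM at 72h (SD, n = 2). bru3 averaged 25.8 ± 0.32 CPM in aly, 20.0 ± 0.421 CPM in bam, 14.5 ± 0.364 CPM at 48h and 9.98 ± 0.248 CPM at 72h. Both were lower at 72h than in bam, by 2.88-fold for bru2 (adjusted p = 8.12e-19) and 2.00-fold for bru3 (adjusted p = 7.91e-13). In aly against 72h both were higher, bru2 by 2.23-fold (adjusted p = 4.34e-15) and bru3 by 2.58-fold (adjusted p = 1.21e-16), where bru1 was 2.5-fold lower.

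Syp was set beside 12 other hnRNP or related RNA-binding genes. At 48h against bam 4 of the 13 were higher and 9 lower, beside 44.1% and 41.8% of all genes, with a median of -0.77 on the log2 scale beside 0.06 over all genes. The higher ones included Syp and heph, the fly polypyrimidine tract binding protein, which is needed for sperm individualisation. heph averaged 707.8 ± 5.77 CPM in aly, 281.5 ± 5.72 CPM in bam, 891.1 ± 1.8 CPM at 48h and 584.6 ± 9.3 CPM at 72h (SD, n = 2), and was 3.17-fold higher at 48h than in bam (adjusted p = 5.16e-34). qkr54B, a quaking-related KH-domain gene, fell 3.39-fold at 48h against bam (adjusted p = 2.44e-25). At 72h against 48h all 13 were lower, beside 34.3% of all genes (median -0.61, beside 0.16 over all genes), among them Syp, for which the call depended on the method as given above. With library size alone all 13 were lower as well, beside 6236 of the 13495 genes tested. In aly against 72h 9 were higher and 4 lower, beside 42.2% and 45.9% of all genes, Syp being one of the 4. The largest of these changes were those of the quaking-related genes qkr58E-1, 3.82-fold higher (adjusted p = 1.17e-21), and qkr58E-2, 2.69-fold higher (adjusted p = 3.72e-28).

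A wider list of 28 germ line RNA-binding genes, which includes the 4 genes, had 26 in the count files, and Imp and vas were not analysed here. Of the 26, 11 were higher and 13 lower at 48h against bam, close to the 44.1% and 41.8% of all genes (median -0.05, beside 0.06 over all genes). fest and Rbp4 had the largest changes of the list there. In aly against 72h 10 were higher and 11 lower, beside 42.2% and 45.9% of all genes (median 0.00, beside -0.07). The largest changes in that comparison were those of bol and of orb, a CPEB-family protein of the oocyte, which was 6.65-fold lower in aly (adjusted p = 1.33e-33), with 28.7 ± 1.54 CPM in aly and 190.8 ± 6.13 CPM at 72h (SD, n = 2).

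**Figure D3:**
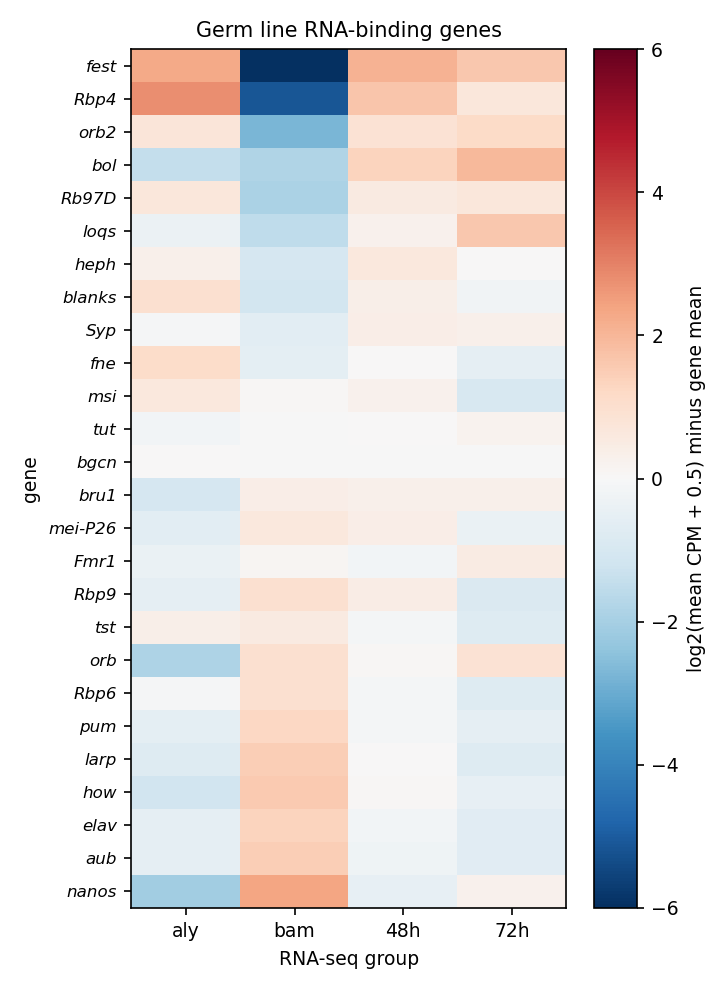
Mean RNA-seq level of the 26 germ line RNA-binding genes as log2(mean CPM + 0.5) minus the gene's mean over the 4 groups, on a colour scale from -6 to 6, with genes ordered from the largest rise to the largest fall at 48h against bam. fest and Rbp4 head the order with pale or red cells in aly, 48h and 72h and the deepest blue in bam, while bru1 is blue in aly alone.

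Likeness over the 8 RNA-seq libraries was read as Pearson's r of log2 CPM, among genes with a similar range of group means. These r rest on 4 pairs of near-identical libraries, so they say only that the group means have the same shape. For Rbp4, 1013 genes could be compared, and the 5 with the highest r were Oli (0.9989), betaNACtes1 (0.9972), Inx6 (0.9960), CG42578 (0.9955) and CG13074 (0.9955). Oli had 44.3 CPM in aly, 0.157 CPM in bam, 20.3 CPM at 48h and 13.3 CPM at 72h. For fest, among 971 genes, they were Pk34A (0.9995), CG11294 (0.9979), ATPsynbetaL (0.9976), CG7886 (0.9976) and CG44433 (0.9975). ATPsynbetaL had 643 CPM in aly, 1.19 CPM in bam, 459 CPM at 48h and 263 CPM at 72h. For bru1, among 5952 genes, they were FBgn0267727 (0.9985), which has no symbol in the table used, ACC (0.9967), CG5850 (0.9953), CG17493 (0.9951) and eIF3j (0.9948). For Syp, among 5180 genes, they were mRpS18C (0.9970), Cul2 (0.9964), CG6511 (0.9937), CG4287 (0.9929) and tant (0.9910).

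ATAC-seq marks open chromatin, and the authors' peak calls were read at both ends of each gene. The gene table used here has ends but no strand, so an end is called lower or upper by its coordinate, and distances run positive towards higher coordinates. Fold enrichment and -log10 q are the authors' values at the peak summit, with 1 list per condition and no replicate values, so none of these differences was tested. List sizes ran from 29559 peaks in aly and 30062 in bam to 36412 at 48h and 38078 in topi. The conditions also held unequal numbers of ATAC-seq samples: 2 for bam, 2 for the heat shock control, 3 for 48h, 3 for 72h, 4 for topi and 6 for aly. Calls of a peak as present or absent were not adjusted for list size or for number of samples. A peak within 100 bp of a gene end was found for 4 of the 4 genes in the topi list (60.3% of 13946 protein-coding genes), 4 in aly (60.4%), 1 in bam (57.4%), 1 in the heat shock control (58.4%), 4 at 48h (67.1%) and 3 at 72h (70.3%). The gene with a peak in bam and in the heat shock control was bru1. Counted by gene, 3 had an end peak at 48h and not in bam (10.8% of genes), and 2, fest and Syp, had one at 72h and not in bam (14.4%).

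At the upper end of Rbp4, 48h had a peak from 90 bp below to 173 bp above the end with a fold enrichment of 3.28 (-log10 q of 57.0), and a second one from 270 to 554 bp above it with 3.46. aly had 1 peak over the same stretch, from -95 to 456 bp, with 3.90, and topi had one from -88 to 169 bp with 2.40. In the bam and 72h lists no peak lay within 500 bp of this end, and the heat shock control had one only inside the gene, from -323 to -219 bp, with 1.79. Rbp4 thus had an end peak in topi, aly and 48h and none in bam, the heat shock control and 72h, a combination found for 32 of the 13946 genes (0.229%). The combination was taken from Rbp4's own peaks, so its small share is a description and not evidence. With a window of 500 bp, Rbp4 was counted in the heat shock control too. An end peak at 48h and not at 72h, whatever the other lists, was found for 2.46% of genes. The next gene, Hrb87F, lies 451 bp beyond this end. The second 48h peak runs across the near end of Hrb87F, and the aly peak just reaches it. On the other side rin lies 28 bp from the lower end of Rbp4, where no list had a peak within 500 bp. The RNA of both neighbours ran differently: Hrb87F averaged 56.8 ± 0.232 CPM in aly, 119.1 ± 2.42 CPM in bam, 70.1 ± 0.657 CPM at 48h and 46.9 ± 1.51 CPM at 72h, and rin had its highest mean, 992.3 ± 11.8 CPM, in bam (SD, n = 2).

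The lower end of fest had a peak across it in 4 lists. The fold enrichment was 2.57 in topi, 5.42 in aly, 4.84 at 48h and 8.04 at 72h, where -log10 q reached 149. The peak started between 218 and 227 bp below the end in all 4 and ended 184 bp above it in topi, 618 bp in aly, 603 bp at 48h and 409 bp at 72h. bam had none within 500 bp, and the heat shock control had only a peak of 104 bp from -238 to -135 bp with 2.17. An end peak in topi, aly, 48h and 72h and in neither bam nor the control was found for 142 genes (1.02%). Syp was among them, through its upper end in topi and aly and its lower end at 48h and 72h. This combination, too, was taken from the peaks of fest itself, so its share only describes. Unlike Rbp4, fest kept its end peak at 72h. In the nucleosome maps, which give positions the authors called, this end had no called position within 500 bp in bam and 2 in the heat shock control, against 4 each in topi, aly, 48h and 72h. Occupancy at this end ran from 0.44 (18 reads) at -140 bp in aly to 1.00 (3 reads) at -345 bp at 72h, so some of these positions rest on few reads. The maps differed in size, with 99570 positions in aly, 109509 in bam and 139279 in topi. No share over all gene ends was computed. Other ends ran differently: at the lower end of bru1, bam had more called positions than topi or aly.

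bru1 had a peak at its lower end in all 6 lists, as did 52.1% of genes. Its fold enrichment was 2.51 in topi, 2.83 in aly, 5.78 in bam, 6.35 in the heat shock control, 5.73 at 48h and 4.70 at 72h. topi and aly, the 2 lowest, are the tMAC mutants, and aly is also the group with the lowest bru1 RNA. topi has no RNA-seq here, and a link between this peak and bru1 RNA was not tested. Without strand, this end cannot be called a start site. The summit lay between 34 and 55 bp below the end in every list. A second peak farther below, which overlapped the upper end of lncRNA:CR43356, was also in every list, with 1.99 in topi, 4.20 in aly, 3.05 in bam, 3.56 in the heat shock control, 5.49 at 48h and 4.29 at 72h.

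At the lower end of Syp, 48h and 72h had a peak across the end, from -132 to 300 bp with 3.74 and from -136 to 314 bp with 4.89, with summits 23 and 21 bp below the end. In topi, aly, bam and the heat shock control a narrower peak lay only inside the gene, starting 118 to 136 bp above the end, with fold enrichments of 3.15, 2.59, 3.10 and 2.72. The rule of 100 bp counted topi and aly for Syp only by peaks at its upper end, from 88 bp above it in topi and from 66 bp in aly, which run towards Fancd2, 77 bp away. Across the lower end itself, the widened peak was thus called at 48h and 72h and not in topi, aly, bam or the heat shock control.

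**Figure D4:**
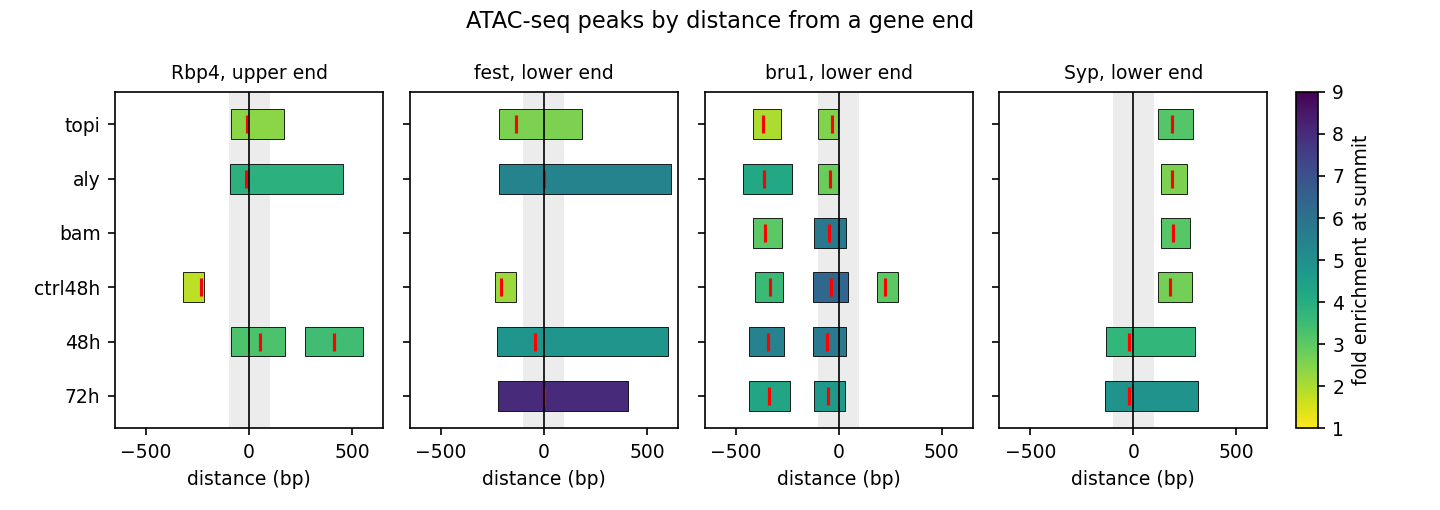
ATAC-seq peaks (bars, coloured by the authors' fold enrichment, with a red tick at the summit) by distance in bp from the named end of each gene, in the lists of topi, aly, bam, the heat shock control (ctrl48h), 48h and 72h, with the window of 100 bp either side in grey. Rbp4 has no peak in bam or at 72h, fest has one across its end in topi, aly, 48h and 72h, bru1 has one in all 6 lists, and the Syp peak crosses the end at 48h and 72h alone.

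The long genes also held peaks away from their ends. bru1 held 10 peaks in topi, 9 in aly, 12 in bam, 14 in the heat shock control, 13 at 48h and 19 at 72h. Per 1000 peaks of each list, that was 0.263 in topi, 0.304 in aly and 0.399 in bam. It was 0.449 in the heat shock control, 0.357 at 48h and 0.535 at 72h. Of the 19 at 72h, 12 overlapped no bam peak, beside 32.2% of all 72h peaks, and 12 overlapped no aly peak, beside 32.5%. The 12 without a bam peak had fold enrichments of 1.593 to 3.351 at 72h, most of them below the 72h list median of 2.921. The shares over all peaks were not matched for fold enrichment. Syp held 21 peaks in topi, 26 in aly, 18 in bam, 19 in the heat shock control, 28 at 48h and 29 at 72h. Per 1000 peaks, Syp had 0.551 in topi, 0.88 in aly and 0.599 in bam. It had 0.61 in the heat shock control, 0.769 at 48h and 0.816 at 72h, so aly was highest on this scale. Of its 29 at 72h, 14 overlapped no bam peak and 11 overlapped no aly peak. Merged over the lists, bru1 had 32 open regions, 5 of them in every list and 15 in 1 list, and Syp had 41, of which 14 were in every list and 11 in 1. The Syp region on chromosome 3R from 20790284 to 20791060 was in every list and had the highest fold enrichment of the gene's regions in all but the aly list, with 9.25 in topi, 4.92 in aly, 9.65 in bam, 8.72 in the heat shock control, 8.49 at 48h and 9.19 at 72h. In aly 3 other Syp regions were higher, up to 7.14 from 20762239 to 20762437. For neither gene was a region present in both bam and the control and absent from both 48h and 72h. Regions in bam or in the control but not in both, and in neither 48h nor 72h, occurred in both genes. Examples from the bam list are 12177076 to 12177179 in bru1, with 2.118, and 20798310 to 20798538 in Syp, with 2.035. The bru1 region was in no other list, and the Syp region was also in the aly list, with 1.719. The share of all peaks with such patterns was not computed.

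Several genes share ground with bru1 and Syp, and no source used here says whether reads were counted by strand, so reads could be split between them. CG31759, nested in bru1, averaged 2.17 ± 0.158 CPM in aly, 14.0 ± 1.38 CPM in bam, 14.9 ± 0.755 CPM at 48h and 41.6 ± 0.0826 CPM at 72h (SD, n = 2). atilla, also nested in bru1, stayed between 3.46 and 7.74 CPM on average. CG31195, nested in Syp, averaged 57.0 ± 0.167 CPM in aly, 137.7 ± 2.65 CPM in bam, 46.1 ± 0.0354 CPM at 48h and 30.7 ± 1.21 CPM at 72h, the reverse of Syp in being highest in bam. Takl1, also nested in Syp, averaged at most 0.390 CPM.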

How the data were processed

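Build dm6 and the tools Trim Galore (0.4.1), STAR (2.5.1b, 2.5.4b), BWA (0.7.10), MACS2 (2.1.1), bedtools (2.25.0) and deepTools (2.5.4) are named in the submitters' processing notes without their steps. RNA-seq and CAGE files were deposited as raw counts, for genes and for clusters. Per the labels' protocols, RNA was rRNA-depleted and made into stranded libraries; the sources used here do not give the counting tool or strand setting. The deposited peak lists, 1 per condition, give each peak's fold enrichment ratio, -log10 q and a score. Nucleosome maps were deposited as called positions, each with an occupancy fraction and a read count. How the authors combined replicates in both is not stated.

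Here, edgeR 4.0.16 (R 4.3.3) was run on all 8 RNA-seq libraries with filterByExpr, TMM and the quasi-likelihood F test, with calls at a Benjamini-Hochberg adjusted p below 0.05. Log2 changes are given ± SE. On simulated data for 48h against bam (12947 genes), 100% of 2-fold and 93% of 1.5-fold changes were recovered, with 2 false calls. Changes were planted only in genes above a minimum mean count, and counts were drawn at the 2.11% spread of these libraries. The simulation thus says nothing on genes with few reads or on a wider spread between cultures. Genes without a symbol held 3.07% of counts. Gene ends came from RefSeq's Release 6 annotation (dm6), and peaks were assigned at an overlap of 1 bp or more with 100 bp either side of an end. Counting intervals are exact at 95% and cover counting error only.

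The members, the lists and the rule for named genes were chosen with earlier results of these data known. The rule named the 4 genes, CycB, twe, bol, eIF4G2, CG1690, bru2, bru3, the 2 largest called changes of each list at 48h against bam and in aly against 72h, and the 5 genes most like each member (at least 10 CPM in the highest group, a log2 range within 1, prior count 2). Neighbouring genes were added by position. A CAGE comparison of these genes was planned and could not be made, because the clusters carry no gene or position. Alternatives were DESeq2 1.42.0, library size alone, no filter, a replicate block, only the compared groups, the spread of the CAGE libraries (17.3%) and leaving out each library. For peaks they were a window of 500 bp, a -log10 q of 10 or more and a summit inside the window.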

Additional observations from a re-analysis of the deposited data

How the results depend on the processing

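Of 240 alternative values of the 4 genes' changes, 210 kept their direction and side of the threshold. All changes of Rbp4 did at that threshold (its side of 2-fold varied at 72h against 48h and in aly against 48h), and those of fest and Syp against bam and of bru1 in aly against each other group. DESeq2 reversed bru1 at 48h against bam (0.018) and at 72h against bam (0.123), made bru1 called at 72h against 48h (0.105), and reversed Syp at 72h against 48h (0.002) and orb at 72h against bam (0.088). Library size alone reversed bru1 at 48h against bam (0.096) and at 72h against 48h (-0.313), eIF4G2 in aly against 72h (0.029) and orb2 at 72h against 48h (-0.037). No filter reversed bru1 at 48h against bam (0.15) and at 72h against 48h (-0.197), fest in aly against 48h (-0.036) and CycB at 48h against bam (0.013), and ended the bru1 call at 72h against bam (-0.047). Fitting only the compared groups gave bru1 -0.021 at 48h against bam and -0.035 at 72h against bam, both uncalled, and reversed it at 72h against 48h (-0.178). The spread of the CAGE libraries ended the calls of fest at 72h against 48h (-0.437) and in aly against 48h (0.184), of bru1 at 48h against bam (-0.092) and 72h against bam (-0.076), and of Syp at 72h against 48h (-0.087), in aly against 48h (-0.455) and in aly against 72h (-0.369). The cause of these changes was not tested, except that the last setting is built to be wider. Relative to the median of all genes, which the settings moved from -0.16 to 0.25 at 72h against 48h, from 0.05 to 0.27 at 48h against bam and from -0.15 to 0.15 in aly against 72h, bru1 stayed at -0.16 to -0.07 at 48h against bam. On that scale bru1 also kept its sign at 72h against bam (-0.171 to -0.096) and at 72h against 48h (-0.197 to -0.136). So did fest in aly against 48h (0.138 to 0.231), where the median moved from -0.239 to -0.023. Syp at 72h against 48h stayed at -0.299 to -0.23. The reversals of these 3 genes given above are thus on the scale that was not set against the median.

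Leaving out 1 library at a time gave bru1 -0.083 to 0.138 at 48h against bam, reversed without bam replicate 1 and without either 48h library. It gave bru1 -0.08 to -0.06 at 72h against bam (uncalled without bam replicate 1 or 72h replicate 2) and -0.185 to 0.018 at 72h against 48h (negative and called without either 48h library). It gave fest -0.019 to 0.181 in aly against 48h, reversed without either 48h library or aly replicate 1, and CycB -0.225 to 0.001 at 48h against bam (reversed without 48h replicate 1). Falls by 2-fold or more at 72h against 48h numbered 1034 to 1671, the higher counts without 48h replicate 1 (1671) or 48h replicate 2 (1635).

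The share of calls that were higher at 72h against 48h ran from 43.6% to 65.2% by setting, beside 57.2% as reported. Lower calls there numbered 2478 with the spread of the CAGE libraries (4632 as reported), and by 2-fold 2209 with library size alone, 1770 without a filter and 1621 with only the compared groups (1013 as reported). Higher calls in aly against 48h numbered 3330 with the spread of the CAGE libraries (5365 as reported). When a call needed 2-fold or more, list counts shrank. At 48h against bam the lower counts became 2 (CycB list), 1 (Bruno family), 3 (hnRNP list) and 7 (germ line list). At 72h against 48h the CycB list had 2 higher and 2 lower, the Bruno family 0 lower, the hnRNP list 2 lower and the germ line list 1 higher and 3 lower. In aly against 72h the CycB list had 3 lower, the hnRNP list 3 higher and 0 lower, and the germ line list 5 higher and 5 lower. With library size alone the Bruno family had 1 higher at 48h against bam and the germ line list 5 higher at 72h against 48h. For peaks, a window of 500 bp gave 2 genes in bam and 4 in the heat shock control, and a summit inside the window gave 2 in topi.

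Samples with the same replicate number were not treated as paired. The labels give no shared batch, and the correlation of their deviations was 0.108 to 0.295 for 5 of the 6 pairs of groups and 0.0981 for bam and 72h, where pairing was taken as above 0.1 in every pair, so a batch shared by number was not settled. With the replicate number as a block, Rbp4 at 48h against bam stayed at 6.99 and bru1 at -0.092, 5957 genes were higher and 5654 lower (5952 and 5640 without the block), and no call of the 4 genes changed. With libraries this close in spread, depth limits Rbp4, fest and CG1690 in bam most, where they had few reads. The planned CAGE comparison was not run.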

Other observations

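Other germ line RNA-binding genes, chosen after their values were seen, had patterns of their own. Rb97D, which encodes an hnRNP-type protein of the Y chromosome loops of spermatocytes, averaged 563 ± 4.84 CPM in aly, 95.1 ± 1.46 CPM in bam, 512.5 ± 1.76 CPM at 48h and 558.6 ± 8.43 CPM at 72h (SD, n = 2). blanks, a double-stranded RNA-binding gene needed for male fertility, averaged 1725 ± 30.5 CPM in aly, 423.2 ± 5.69 CPM in bam, 1149 ± 13.4 CPM at 48h and 779.7 ± 11.8 CPM at 72h, the same order of group means as Rbp4. eIF4E3, a testis cap-binding protein needed for meiosis, averaged 521.8 ± 2.00 CPM in aly, 150.7 ± 2.94 CPM in bam, 435.6 ± 2.60 CPM at 48h and 916.6 ± 2.44 CPM at 72h, and was 2.1-fold higher at 72h than at 48h (edgeR adjusted p = 3.42e-29). The non-coding gene lncRNA:CR43356, 365 bp from bru1, averaged 32.0 ± 0.21 CPM in aly, 3.66 ± 0.0487 CPM in bam, 28.8 ± 0.733 CPM at 48h and 77.3 ± 2.64 CPM at 72h. Its lowest mean was in bam, whereas bru1 was lowest in aly and its order among bam, 48h and 72h is not settled.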
